A study of Mus musculus with 12 samples.

Results

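The UDP-glucuronosyltransferases (UGTs) and the cytosolic sulfotransferases (SULTs) of the mouse liver were followed across 4 groups of 3 male mice in RNA-seq counts of whole liver. The members are all protein-coding genes whose symbol begins with Ugt1a, Ugt2a, Ugt2b, Ugt3a or Sult, and they number 42 of the 54532 genes in the deposited table: 21 Ugt and 21 Sult genes. All mice carried a floxed allele of Slc25a34, a mitochondrial solute carrier gene, with loxP sites in its promoter and in intron 1, and all received an adeno-associated virus at 2 months of age. In HKO mice the virus was AAV8-TBG-Cre, which brings Cre recombinase under a hepatocyte promoter, and in the control mice, called WT, it was AAV8-TBG-GFP, which brings a fluorescent protein. The virus reaches more than 95% of hepatocytes per the labels, so other liver cells and the hepatocytes it misses keep the allele. Chow was kept up for 1 month after the virus, and then either replaced by a fast-food diet (FFD) or continued for another 2 months; livers were collected following a fast of 16 h. What the FFD contained is not stated in the labels. The groups are HKO on FFD, WT on FFD, HKO on chow and WT on chow.

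The libraries held 12842187 to 24332663 counts each, and the 42 members together took 0.384% to 0.548% of them. The targeted gene Slc25a34 had 4, 4 and 18 counts in HKO FFD and 4, 13 and 9 in HKO chow libraries, against 30, 92 and 67 in WT FFD and 116, 88 and 109 in WT chow libraries, so every HKO library lay below every WT library. Hepatocyte markers summed to 64226 to 67507 CPM in HKO FFD, 60316 to 62321 in WT FFD, 60140.4 to 64607 in HKO chow and 62108 to 71329 in WT chow libraries. CPM are counts normalised to library size after TMM scaling (trimmed mean of M values). WT FFD replicate 2 and WT chow replicate 3 had raised acute phase genes, and the values without them are given where a call ends. Each group is small, with 3 mice. The p-values of the main fit rest on a spread between mice that is estimated over all 12 libraries together.

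UGTs join glucuronic acid from UDP-glucuronic acid to lipophilic molecules in the endoplasmic reticulum, and SULTs join sulfate from the donor PAPS to them in the cytosol. Both make their substrates soluble for export into bile or blood. The liver is a main site of both reactions, which clear bilirubin, bile acids, steroid and thyroid hormones, and drugs. The Ugt1a genes are a single locus in which each gene has a first exon of its own, spliced to last exons that all share. Ugt2a1 and Ugt2a2 share exons too, while the other Ugt2 genes and the Sult genes are separate units, many of them side by side in clusters.

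Of the 42 members 24 had enough reads to be tested. These were 6 of 9 Ugt1a, 7 of 7 Ugt2b, 1 of 3 Ugt2a and 2 of 2 Ugt3a genes, together 16 of the Ugt genes, and 8 of the Sult genes. Ugt2a1, Ugt2a2, Sult2a3, Sult2a4, Sult2a6, Sult3a2 and Sult1c1 had no count in any library. Of these, Ugt2a1 and Ugt2a2 share 1771 exon bases with each other and further ones with Gm43638, and how reads in shared exons were handled is not given in the sources used here. Ugt1a10, Ugt1a8, Sult6b2, Sult2a5, Sult2a2, Sult2a1, Sult2b1, Sult3a1, Sult4a1 and Sult6b1 reached at most 9 counts in any library, and Ugt1a2 reached 12. Sult2a1, the sulfotransferase for bile acids and dehydroepiandrosterone that is high in female mouse liver, is among them with at most 2 counts in these male livers.

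Levels can be compared between genes only per length, given here as CPM per kilobase of exon that no other gene shares on the same strand. On this scale Ugt2b5 was highest, with a mean over all 12 libraries of 435, followed by Ugt2b36 with 239.6, Sult2a8 with 227 and Ugt2b1 with 218. A middle band held Sult1a1 with 131, Ugt3a2 with 130.3, Ugt2b34 with 114, Ugt1a1 with 114 and Ugt2a3 with 113. At the low end stood Sult1c2 with 1.41, Sult2a7 with 0.953, Sult1e1 with 0.816 and Ugt1a7c with 0.393. The order of neighbours in the middle band was not tested. The place of Ugt1a1 depends on whether the counting used strand, since per kilobase of exon shared on neither strand it had 269, which would put it second. In counts, without regard to length, Sult2a8, a bile acid sulfotransferase of mouse liver, held 53.7% to 75.3% of all Sult counts of a library.

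**Figure D1:**
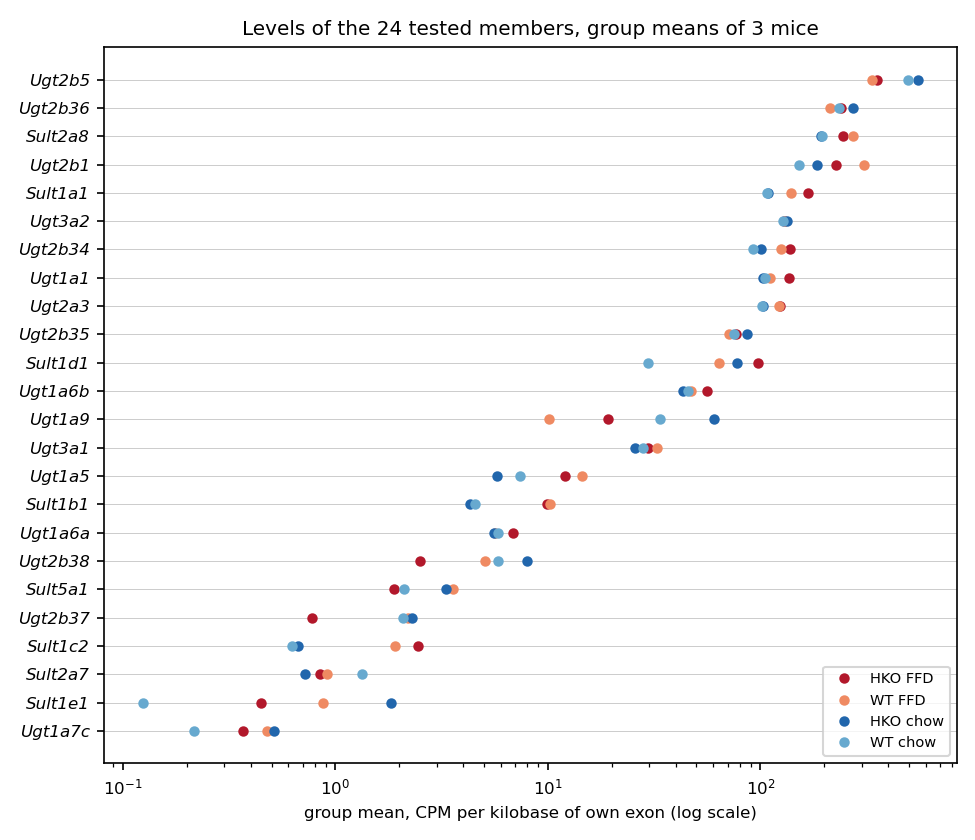
Mean level of each of the 24 tested members in the 4 groups, in CPM per kilobase of own exon on a log axis, ordered by the mean over all libraries; each point is the mean of 3 mice. The points span from Sult1e1 in WT chow livers at 0.124 to Ugt2b5 in HKO chow livers at 553. For Ugt1a9 and Sult1c2 the points of FFD and chow groups stand apart.

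Near-identical copies limit some of these values. All Ugt1a genes share 1311 exon bases at the 3′ end, and reads in them were not assigned to each gene in turn, since Ugt1a8, which has the same shared exons, reached at most 4 counts. Of the 50-base stretches of Ugt1a6b transcripts 79.8% also occur in another gene, chiefly Ugt1a6a, so that the division between that pair is uncertain. The shares were 41.7% for Ugt2b5, 37.4% for Ugt2b38 and 18.3% for Ugt2b37, and at most 7.60% for the other tested Ugt2 and Ugt3 genes and for all tested Sult genes. The noncoding gene Gm20528 overlaps the Ugt1a genes on the opposite strand and was listed with 0 counts in every library, and whether the counting used strand is not given in the sources used here.

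The first comparison asks what the diet changed. On FFD relative to chow, averaged over both genotypes, 7 members were higher and 2 lower of the 24 tested, while 26.8% of the 14277 tested genes passed the same test, 13.9% higher and 12.9% lower (edgeR's quasi-likelihood test, Benjamini-Hochberg adjusted p under 0.05). The tests, all two-sided, gave within genotypes 5 higher and 3 lower members in HKO livers, where 13.6% of all tested genes passed (7.46% higher and 6.12% lower), and 7 higher and 2 lower in WT livers, where 14.9% passed (8.24% higher and 6.61% lower). Members thus passed at 9 of 24 in the average, 8 of 24 in HKO and 9 of 24 in WT livers. The median log2 fold change of the tested members was 0.23 in the average against −0.01 for all tested genes. Among the Ugt genes 4 were higher and 2 lower in the average, and among the Sult genes 3 were higher and 0 lower.

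Sult1b1, Sult1c2, Ugt1a5, Ugt1a9, Ugt2b34 and Ugt2b5 passed in both genotypes, all with the same sign in both. Libraries of the FFD and chow groups did not overlap for 9 members that were higher and 5 that were lower in HKO livers, against 33.6% of all tested genes in either direction, and for 7 higher and 2 lower in WT livers, against 32.6%. The numbers in the deposited column names fall in a separate range for each of the 4 groups. Neither diet nor genotype can therefore be told apart from whatever those numbers stand for, in any of the comparisons. WT chow replicate 3 has a number that stands apart from the others of its group.

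**Figure D2:**
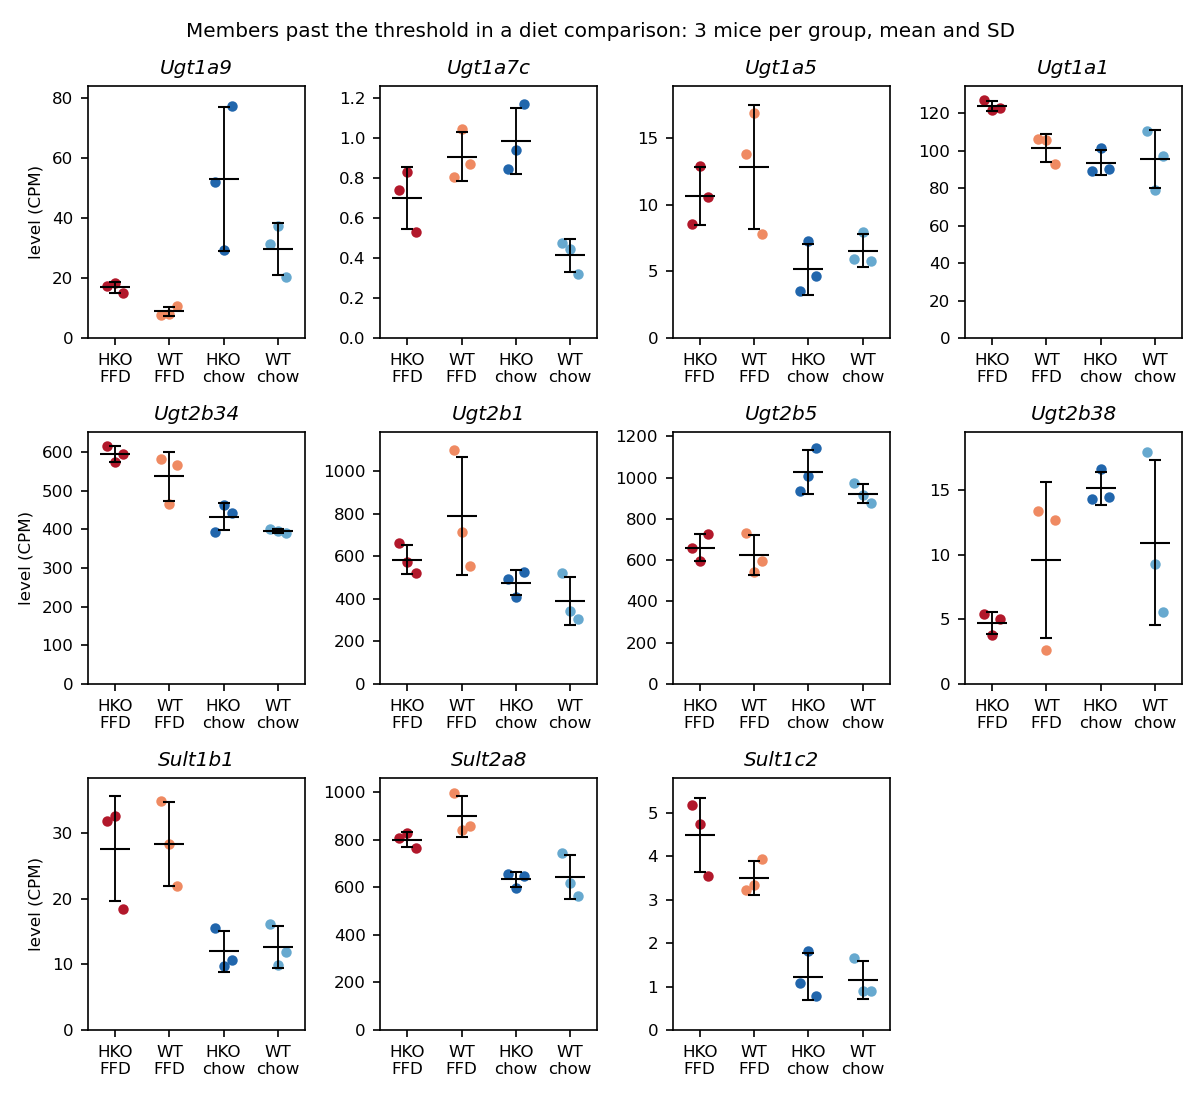
Level in CPM, on linear axes from 0, of the 11 members that passed the threshold in any diet comparison; points are mice, horizontal bars the mean of 3 mice and whiskers the SD. Ugt1a9 and Ugt2b5 stand lower on FFD than on chow in both genotypes, and Sult1c2 and Sult1b1 stand higher.

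Within the Ugt1a locus the counts of single genes differed between FFD and chow in opposite directions. Ugt1a9, whose human counterpart conjugates bulky phenols and many drugs, fell on FFD by 1.70 on the log2 scale in the average, which is 3.25-fold, while Ugt1a5 rose 1.998-fold and Ugt1a1, the enzyme that conjugates bilirubin, rose 1.19-fold. The 3 genes lie on the plus strand of chromosome 1 in mm10 with starts at 88070800 for Ugt1a9, 88166012 for Ugt1a5 and 88211959 for Ugt1a1, and all end at 88218997, the end of the shared exons. Their RefSeq promoter windows on GRCm38.p6 run from 250 bases before to 50 after the start site. They are printed here because the 3 genes share their last exons and their counts changed in different directions. Capitals mark matches on either strand to GCGTG (the core of xenobiotic response elements), AGGTCA (a nuclear receptor hexamer) or GTTAAT (an part of the HNF1 site); TGACNNNGC (the core of antioxidant response elements) was searched too and has no match in these windows. The windows are chr1:88070529-88070828 for Ugt1a9, chr1:88165762-88166061 for Ugt1a5 and chr1:88211709-88212008 for Ugt1a1, all on the plus strand, and the RefSeq starts lie 0 to 22 bases from the deposited gene starts in every window printed here.
Ugt1a9: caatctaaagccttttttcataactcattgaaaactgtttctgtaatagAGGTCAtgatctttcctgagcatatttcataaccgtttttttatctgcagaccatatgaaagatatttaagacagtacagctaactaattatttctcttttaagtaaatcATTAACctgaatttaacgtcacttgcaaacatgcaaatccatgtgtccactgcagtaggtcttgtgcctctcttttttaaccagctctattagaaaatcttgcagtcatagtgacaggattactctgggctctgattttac
Ugt1a5: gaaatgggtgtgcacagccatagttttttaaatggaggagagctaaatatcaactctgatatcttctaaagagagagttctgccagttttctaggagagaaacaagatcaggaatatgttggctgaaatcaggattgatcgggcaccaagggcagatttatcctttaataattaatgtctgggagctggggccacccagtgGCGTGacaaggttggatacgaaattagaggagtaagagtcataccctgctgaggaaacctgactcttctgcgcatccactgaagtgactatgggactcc
Ugt1a1: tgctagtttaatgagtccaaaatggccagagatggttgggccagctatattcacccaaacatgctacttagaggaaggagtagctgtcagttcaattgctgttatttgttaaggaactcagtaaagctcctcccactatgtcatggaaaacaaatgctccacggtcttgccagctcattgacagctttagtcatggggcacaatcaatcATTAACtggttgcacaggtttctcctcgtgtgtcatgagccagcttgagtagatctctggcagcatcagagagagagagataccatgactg
The Ugt1a9 window holds AGGTCA and, on the minus strand, GTTAAT, the Ugt1a5 window holds GCGTG, and the Ugt1a1 window holds GTTAAT on the minus strand. With 1 window per member, the first listed, 9 of the 21 tested members with a window held AGGTCA (42.9%), against 16.3% of all 32851 RefSeq promoter windows of the same length. GTTAAT was in 7 of the 21 (33.3%), against 7.1% of all windows, GCGTG in 2 (9.52%), against 32.4%, and TGACNNNGC in 0, against 12.4%. The second windows of Sult1b1, with GCGTG, and Sult2a8, with AGGTCA, were not counted. Some of these windows are related in sequence, and a match is a description of letters.

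In HKO livers Ugt1a9 stood at 17.4, 18.2 and 14.9 CPM on FFD, against 52.04, 29.4 and 77.2 CPM on chow. In WT livers it stood at 7.77, 8.10 and 10.7 CPM on FFD, against 31.4, 37.4 and 20.4 CPM on chow. All FFD libraries were below all chow libraries of the same genotype, and chow mice varied widely among themselves. The log2 fold change was −1.65 (SE 0.30, edgeR adjusted p = 0.00382) in HKO and −1.75 (SE 0.31, edgeR adjusted p = 0.00344) in WT livers. The share of Ugt1a9 in all Ugt1a counts was 7.65% in HKO FFD and 4.97% in WT FFD livers, against 25.3% in HKO chow and 15.9% in WT chow livers.

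Ugt1a5 was higher on FFD. Its level in HKO livers was 8.55, 12.9 and 10.6 CPM on FFD, against 3.54, 7.25 and 4.68 CPM on chow, and the groups did not overlap. In WT livers it was 13.8, 16.9 and 7.79 CPM on FFD, against 5.94, 7.99 and 5.77 CPM on chow, where FFD replicate 3 fell just below the highest chow library. The log2 fold change in the average was 1.00 (SE 0.21, edgeR adjusted p = 0.00409), and it passed under all alternatives, with adjusted p between 3.96e-07 and 0.0219. Within genotypes it was 1.03 (SE 0.30, edgeR adjusted p = 0.0398) in HKO and 0.96 (SE 0.29, edgeR adjusted p = 0.0456) in WT livers. The HKO call ended without HKO FFD replicate 1, 2 or 3 (adjusted p = 0.0515, 0.145 and 0.079), WT FFD replicate 1 (0.0529) or HKO chow replicate 1 or 3 (0.133 and 0.126), in a range over all alternatives of 0.000325 to 0.145. The WT call ended under 12 of 20 alternatives, among them leaving out any HKO FFD library, WT FFD replicate 1 or 2, HKO chow replicate 3 or any WT chow library, with adjusted p between 0.0517 and 0.162, and with 0.295 without both libraries with raised acute phase genes.

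Ugt1a1 rose little and mainly in 1 genotype's test. It stood at 127, 122 and 123 CPM in HKO FFD livers, against 89.4, 101 and 90.4 CPM in HKO chow livers. In WT livers the values were 106, 106 and 93.1 CPM on FFD, against 110.4, 79.3 and 97.1 CPM on chow. The diets did not overlap in HKO livers and did overlap in WT livers. In HKO livers the log2 fold change was 0.40 (SE 0.11, edgeR adjusted p = 0.0272), in WT livers 0.09 (SE 0.11, adjusted p = 0.635) and in the average 0.25 (SE 0.08, adjusted p = 0.0304). The difference between genotypes did not pass (interaction 0.31, SE 0.15, edgeR adjusted p = 0.577). The HKO call ended when any HKO FFD library or HKO chow replicate 1 or 3 was left out, with adjusted p between 0.0573 and 0.0963 in a range over all alternatives of 0.00659 to 0.0963. The call in the average ended without HKO FFD replicate 1, WT FFD replicate 1 or 2, HKO chow replicate 1 or 3 or WT chow replicate 2, with adjusted p between 0.0572 and 0.07, and without both libraries with raised acute phase genes (0.0764), in a range of 0.00707 to 0.0764.

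Ugt1a7c passed in WT livers alone and rests on 5 to 20 counts per library. It stood at 0.806, 1.05 and 0.871 CPM in WT FFD livers, against 0.475, 0.447 and 0.321 CPM in WT chow livers (log2 fold change 1.11, SE 0.34, edgeR adjusted p = 0.0457). In HKO livers it was 0.741, 0.832 and 0.529 CPM on FFD, against 0.847, 0.941 and 1.17 CPM on chow, a log2 fold change of −0.51 that did not pass (SE 0.32, adjusted p = 0.323). The WT call ended under 18 of 19 alternatives, with any 1 of the 12 libraries left out giving adjusted p between 0.0513 and 0.136 in a range of 0.0457 to 0.266. The remaining tested genes of the locus, Ugt1a6b and Ugt1a6a, which conjugate small phenols, did not pass. Ugt1a6b averaged 52.7 ± 2.83 CPM in HKO FFD, 44.3 ± 5.72 in WT FFD, 40.7 ± 4.44 in HKO chow and 42.7 ± 7.06 in WT chow livers (SD, n = 3 each), and Ugt1a6a averaged 14.6 ± 3.35, 12.03 ± 1.52, 11.9 ± 0.824 and 12.4 ± 1.78 CPM in the same order. Summed over the 9 genes, the locus averaged 219.9 ± 3.15 CPM in HKO FFD and 181 ± 15.4 in WT FFD livers, against 206 ± 15.8 in HKO chow and 188 ± 19.1 in WT chow livers.

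The Ugt2b genes, whose products conjugate steroids, bile acids and drugs, lie with Ugt2a3 and 3 Sult genes in a row on chromosome 5. The row as a whole did not change together on FFD relative to chow. Averaged over genotypes, Ugt2b34 and Ugt2b1 rose on FFD, Ugt2b5 fell, and Ugt2b35, Ugt2b36, Ugt2b37 and Ugt2b38 did not pass. Ugt2b34 (mm10 chromosome 5, 86889767 to 86906937, minus strand) stood at 615, 574 and 594 CPM in HKO FFD livers, against 394, 464 and 441 CPM in HKO chow livers. In WT livers it stood at 581, 464 and 567 CPM on FFD, against 402, 395 and 391 CPM on chow. Every FFD library was above every chow library of its genotype, by 0.46 on the log2 scale in HKO (SE 0.10, edgeR adjusted p = 0.00896) and 0.44 in WT livers (SE 0.10, edgeR adjusted p = 0.00994).

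Its neighbour Ugt2b1 (86916638 to 86926530, minus strand) had 1096, 713 and 556 CPM in WT FFD livers, against 519.9, 345 and 305 CPM in WT chow livers. In HKO livers it had 659.7, 571 and 523 CPM on FFD, against 495, 408 and 525 CPM on chow. WT FFD replicate 1 was the highest of all libraries, and the diets overlapped in HKO but not in WT livers. The log2 fold change was 0.66 in the average (SE 0.17, edgeR adjusted p = 0.0115), 1.02 in WT livers (SE 0.24, adjusted p = 0.0141) and 0.30 in HKO livers, where it did not pass (SE 0.24, adjusted p = 0.454). The difference between the genotypes did not pass either (interaction −0.72, SE 0.33, edgeR adjusted p = 0.551). The WT call ended without WT FFD replicate 1 (log2 fold change 0.70, adjusted p = 0.0542), WT chow replicate 2 (0.0644) or WT chow replicate 3 (0.0518), without both libraries with raised acute phase genes (0.0649) and with the WT groups alone in the fit (0.0504), in a range over alternatives of 5.4e-07 to 0.0649.

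Ugt2b5, the member with the highest level per length, was lower on FFD, Ugt2b38 was lower in HKO livers alone by test, and Ugt2b37 just missed the threshold there. Their RefSeq promoter windows (GRCm38.p6, minus strand, chr5:87140291-87140590 for Ugt2b5, chr5:87254739-87255038 for Ugt2b37 and chr5:87424154-87424453 for Ugt2b38) are shown because the 3 are closely alike, with capitals for matches to AGGTCA.
Ugt2b5: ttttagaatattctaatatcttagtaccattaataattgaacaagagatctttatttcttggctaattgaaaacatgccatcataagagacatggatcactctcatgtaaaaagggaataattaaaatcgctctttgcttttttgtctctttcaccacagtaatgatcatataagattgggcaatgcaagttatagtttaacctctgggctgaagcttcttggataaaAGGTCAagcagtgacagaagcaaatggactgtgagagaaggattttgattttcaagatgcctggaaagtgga
Ugt2b37: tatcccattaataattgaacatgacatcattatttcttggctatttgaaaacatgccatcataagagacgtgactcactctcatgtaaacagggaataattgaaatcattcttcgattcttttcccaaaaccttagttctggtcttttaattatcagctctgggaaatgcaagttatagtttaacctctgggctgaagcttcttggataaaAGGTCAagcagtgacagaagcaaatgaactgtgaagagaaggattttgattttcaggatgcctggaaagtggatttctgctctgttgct
Ugt2b38: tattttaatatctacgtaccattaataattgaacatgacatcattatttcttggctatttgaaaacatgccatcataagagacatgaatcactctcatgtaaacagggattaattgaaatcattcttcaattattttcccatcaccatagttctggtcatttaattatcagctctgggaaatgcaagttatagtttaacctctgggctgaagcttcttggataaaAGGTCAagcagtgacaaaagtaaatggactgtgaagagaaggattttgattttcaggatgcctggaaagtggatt
Aligned over their whole length, the windows of Ugt2b37 and Ugt2b38 are 86.9% identical, those of Ugt2b5 and Ugt2b38 84.2% and those of Ugt2b5 and Ugt2b37 76.2%. The next most alike pair in the cluster, Ugt2b36 and Ugt2b38, has 63.9%. Each window holds 1 AGGTCA on the gene's own strand, which starts 22 bases before the start site in Ugt2b5, 39 before it in Ugt2b37 and 25 before it in Ugt2b38. Ugt2b36, which did not pass in any comparison, holds AGGTCA 25 bases before its start as well.

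Ugt2b5 (87124960 to 87140318, minus strand) stood at 657, 595 and 725 CPM in HKO FFD livers, against 933, 1008 and 1143 CPM in HKO chow livers. WT livers had 733, 544 and 596 CPM on FFD, against 973, 915 and 879 CPM on chow. No FFD library reached a chow library, and the log2 fold change was −0.64 in HKO (SE 0.12, edgeR adjusted p = 0.00512) and −0.56 in WT livers (SE 0.12, edgeR adjusted p = 0.00937). The gene supplied 25.4% of Ugt2b counts in HKO FFD and 23.7% in WT FFD livers, against 36.6% in HKO chow and 37.5% in WT chow livers.

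Ugt2b38 (87409942 to 87424203, minus strand) stood at 5.39, 3.80 and 5.005 CPM in HKO FFD livers, against 14.3, 16.6 and 14.5 CPM in HKO chow livers, a log2 fold change of −1.68 (SE 0.50, edgeR adjusted p = 0.0425). In WT livers it scattered from 2.61 to 13.4 CPM on FFD and from 5.58 to 17.99 CPM on chow, with no difference past the threshold (log2 fold change −0.20, SE 0.48, adjusted p = 0.829). The difference between genotypes did not pass (interaction −1.48, SE 0.69, edgeR adjusted p = 0.556). The HKO call ended when any HKO library was left out (adjusted p between 0.0804 and 0.146), without WT chow replicate 2 (0.0565) and with robust dispersion estimates (0.0889), in a range of 1.37e-05 to 0.146. Ugt2b37 had 2.15, 1.25 and 1.02 CPM in HKO FFD livers, against 3.002, 4.48 and 5.53 CPM in HKO chow livers, and missed the threshold (log2 fold change −1.60, SE 0.51, edgeR adjusted p = 0.0554). Its WT values were 2.82, 1.67 and 7.996 CPM on FFD, against 4.69, 3.74 and 3.34 CPM on chow, and the diets overlapped. No fall was seen there (log2 fold change 0.09, SE 0.46, edgeR adjusted p = 0.924). For Ugt2b37 too, the difference between genotypes did not pass (interaction −1.69, SE 0.69, edgeR adjusted p = 0.486). Both genes share sequence with Ugt2b5, and their counts are far fewer, at most 303 and 156 in a library, against 9764 to 18202 for Ugt2b5.

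**Figure D3:**
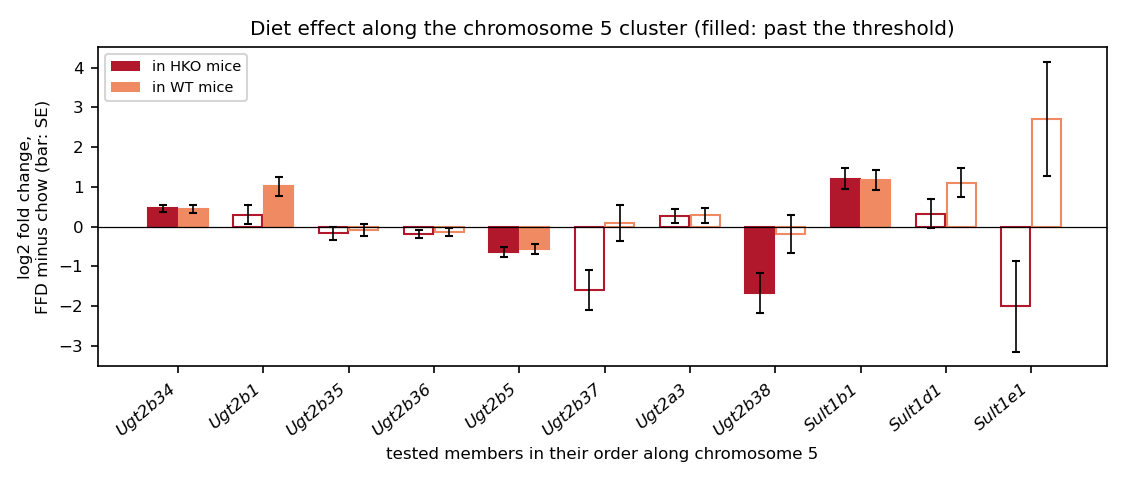
Log2 fold change on FFD relative to chow, in HKO and WT livers, of the 11 tested members of chromosome 5 in their order along it; whiskers are the SE and filled bars pass the adjusted threshold. Ugt2b34 and Sult1b1 rose in both genotypes and Ugt2b5 fell in both. Ugt2b1 passed in WT livers alone and Ugt2b38 in HKO livers alone, and the other members did not pass.

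The other members of the Ugt2 and Ugt3 families did not pass in any diet comparison. Ugt2b36 averaged 495 ± 34.7 CPM in HKO FFD, 436 ± 21.4 in WT FFD, 561 ± 57.9 in HKO chow and 482 ± 49.1 in WT chow livers, and Ugt2b35 averaged 257 ± 38.9, 238 ± 39.6, 290.2 ± 34.2 and 253 ± 44.4 CPM in the same order (SD, n = 3 each). Ugt2a3 averaged 263 ± 10.6, 260.1 ± 32.8, 219 ± 29.5 and 215 ± 66.8 CPM, with an average log2 fold change of 0.27 (SE 0.13, edgeR adjusted p = 0.136). Ugt3a2, a UGT whose human counterpart uses other sugar donors than UDP-glucuronic acid, was the steadiest member: it averaged 401 ± 22.6, 407 ± 37.8, 413 ± 18.1 and 396 ± 23.96 CPM, and its SE of 0.06 around an average log2 fold change of −0.00 was the smallest of the tested members. Ugt3a1 averaged 78.97 ± 0.671, 87.5 ± 12.2, 68.8 ± 3.47 and 74.6 ± 15.1 CPM. The 7 Ugt2b genes together averaged 2596 ± 109 CPM in HKO FFD and 2637 ± 458 in WT FFD livers, against 2807 ± 241 in HKO chow and 2458 ± 173 in WT chow livers, sums that include the risen Ugt2b34 and Ugt2b1 and the fallen Ugt2b5.

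Among the sulfotransferases the calls were all upward. Sult1c2, a SULT of phenolic substrates, rose 3.29-fold on FFD in the average, Sult1b1, a SULT of thyroid hormones and phenols, rose 2.28-fold, and Sult2a8 rose 1.33-fold. Sult1c2 (mm10 chromosome 17, 53829637 to 53846339, minus strand) stood at 5.18, 4.75 and 3.54 CPM in HKO FFD livers, against 1.08, 1.83 and 0.780 CPM in HKO chow livers. WT livers had 3.22, 3.34 and 3.95 CPM on FFD, against 1.66, 0.894 and 0.898 CPM on chow. The lowest FFD library of either genotype lay above the highest chow library, with 56 to 87 counts on FFD and 12 to 33 on chow. The log2 fold change was 1.83 in HKO (SE 0.32, edgeR adjusted p = 0.00335) and 1.60 in WT livers (SE 0.32, edgeR adjusted p = 0.00669).

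Sult1b1 (mm10 chromosome 5, 87513339 to 87538195, minus strand) stood at 31.8, 32.6 and 18.4 CPM in HKO FFD livers, against 15.5, 9.80 and 10.6 CPM in HKO chow livers. WT livers had 34.8, 28.3 and 21.9 CPM on FFD, against 16.1, 9.89 and 11.9 CPM on chow. The diets did not overlap in either genotype, and the log2 fold change was 1.21 in HKO (SE 0.26, edgeR adjusted p = 0.0103) and 1.17 in WT livers (SE 0.26, edgeR adjusted p = 0.0106). The WT call ended without WT chow replicate 2 (adjusted p = 0.0546) and without both libraries with raised acute phase genes (0.0656), in a range from 5.79e-07 to 0.0656. Its promoter window at the deposited gene start (GRCm38.p6, minus strand, chr5:87538146-87538445) is shown because Sult1b1 passed in both genotypes and is the sulfotransferase of the row that did.
Sult1b1: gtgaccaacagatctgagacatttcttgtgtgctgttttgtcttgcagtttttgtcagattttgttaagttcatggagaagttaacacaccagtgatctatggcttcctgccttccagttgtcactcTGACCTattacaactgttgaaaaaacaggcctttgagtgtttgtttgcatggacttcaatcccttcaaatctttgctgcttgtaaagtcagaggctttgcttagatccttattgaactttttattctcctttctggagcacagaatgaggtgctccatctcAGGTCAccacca
The window holds AGGTCA on the minus strand of the window 123 bases before the start site and on its plus strand at base 38 after it, and no match to the other motifs searched.

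Sult2a8 (mm10 chromosome 7, 14410686 to 14446769, minus strand) stood at 997, 842 and 857 CPM in WT FFD livers, against 745, 617 and 564 CPM in WT chow livers. In HKO livers it stood at 806, 828 and 766 CPM on FFD, against 658, 599 and 647 CPM on chow. The diets did not overlap in either genotype, but only the WT difference passed, at 0.48 (SE 0.11, edgeR adjusted p = 0.0112), against 0.33 in HKO livers (SE 0.11, adjusted p = 0.0595). The difference between genotypes did not pass (interaction −0.15, SE 0.15, edgeR adjusted p = 0.831). The average was 0.41 (SE 0.08, edgeR adjusted p = 0.00199). The WT call ended without WT FFD replicate 1 (adjusted p = 0.0501), without WT chow replicate 2 (0.0509) and with the WT groups alone in the fit (0.053), in a range from 0.000399 to 0.053. The HKO difference passed under other alternatives, among them DESeq2, the replicate block and the HKO groups alone in the fit.

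The other tested SULTs did not pass for diet. Sult1a1, the main phenol SULT, averaged 252 ± 57.2 CPM in HKO FFD and 211 ± 66.03 in WT FFD livers, against 163 ± 55.00 in HKO chow and 162 ± 19.1 in WT chow livers (SD, n = 3 each; average log2 fold change 0.50, SE 0.18, edgeR adjusted p = 0.0578). Sult1d1, which sulfates catecholamines in mice, had an average log2 fold change of 0.71 (SE 0.26, adjusted p = 0.0585). Sult5a1 averaged 8.35 ± 3.56 CPM in HKO FFD and 15.8 ± 4.28 in WT FFD livers, against 14.6 ± 5.98 in HKO chow and 9.29 ± 2.81 in WT chow livers, which gave opposite signs in the genotypes, neither past the threshold. Sult2a7 averaged 1.08 ± 0.322, 1.17 ± 0.274, 0.914 ± 0.0852 and 1.71 ± 0.371 CPM in the same order. Summed over all 21 genes, Sult levels averaged 1332 ± 139 CPM in HKO FFD and 1316 ± 92.2 in WT FFD livers, against 1020.5 ± 216 in HKO chow and 903 ± 124 in WT chow livers.

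**Figure D4:**
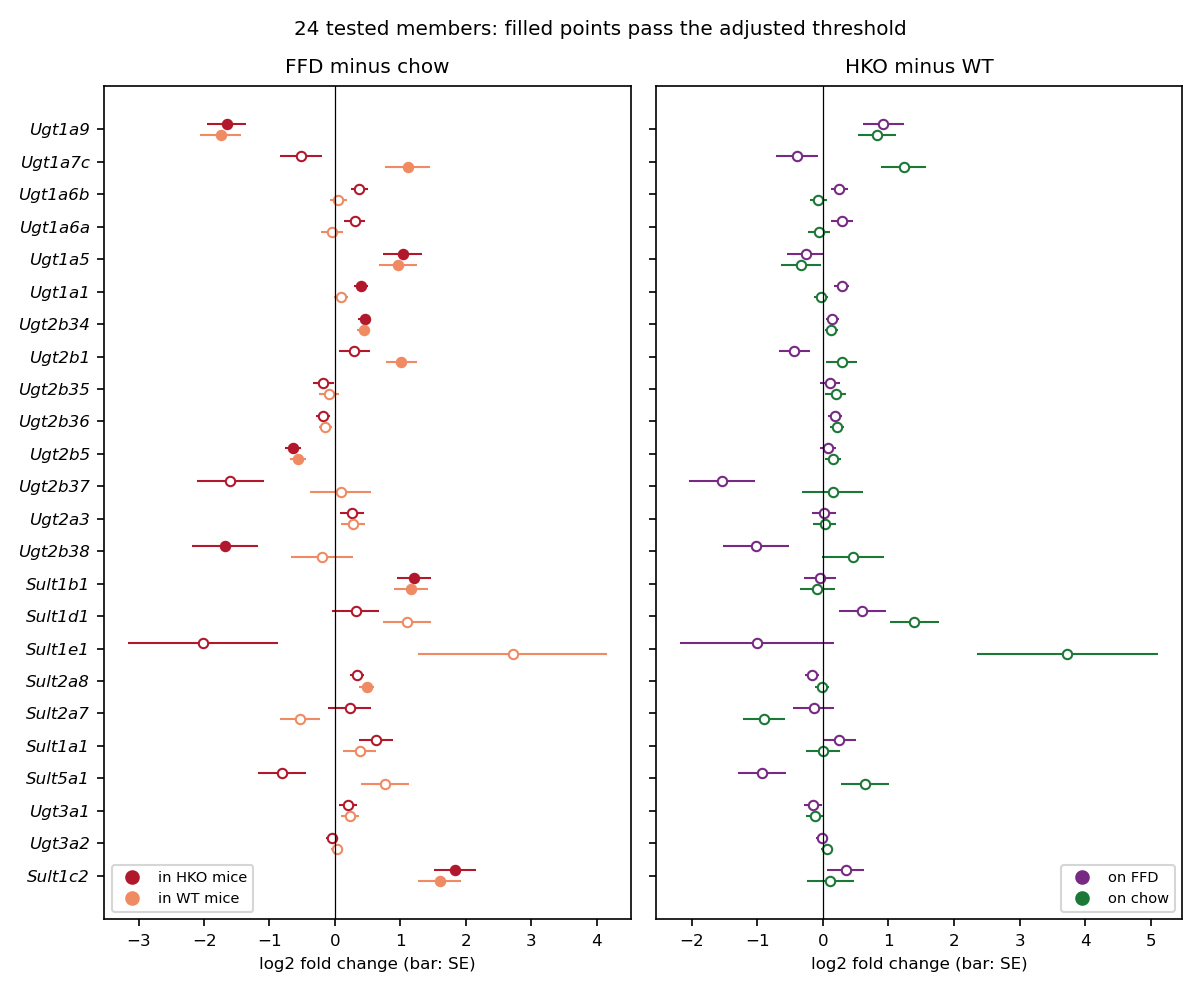
Log2 fold change with its SE for the 24 tested members, on the left for FFD relative to chow in HKO and WT livers, on the right for HKO relative to WT on FFD and on chow; filled points pass the adjusted threshold. The 11 members with filled points on the left contrast with the right side, where no member passed.

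The second comparison asks what loss of Slc25a34 in hepatocytes changed. No member passed on FFD, on chow or in the average over diets, where 0.007%, 0.021% and 0.035% of the 14277 tested genes passed (edgeR's quasi-likelihood test). The passing genes in the average were 0.014% higher and 0.021% lower. At an unadjusted p under 0.05 there were 4, 5 and 4 members of 24 in these 3 comparisons, against 9.34%, 11.8% and 12.2% of all tested genes, and DESeq2 called 0, 0 and 1 member. The median log2 fold change of the tested members was −0.00 on FFD and 0.12 on chow, against −0.00 and 0.00 for all tested genes. Libraries of HKO and WT did not overlap for 5 members on FFD, Ugt1a9, Ugt1a6b, Ugt1a1 and Sult1d1 with higher and Sult2a8 with lower HKO values, against 16.4% of all tested genes (8.08% higher and 8.37% lower). On chow the groups did not overlap for Ugt1a7c, higher in HKO, and Sult2a7, lower in HKO, against 14.2% of all tested genes (6.86% higher and 7.39% lower).

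Ugt1a9, Sult1d1 and Ugt2b36 had the smallest p in the average over diets. Ugt1a9 stood at 17.4, 18.2 and 14.9 CPM in HKO FFD livers, against 7.77, 8.10 and 10.7 CPM in WT FFD livers, and HKO was the higher in every pair of mice on FFD. On chow it stood at 52.04, 29.4 and 77.2 CPM in HKO, against 31.4, 37.4 and 20.4 CPM in WT livers, with HKO replicate 2 inside the WT range. The log2 fold change was 0.87 in the average (SE 0.21, edgeR adjusted p = 0.131), 0.92 on FFD (adjusted p = 0.356) and 0.83 on chow (adjusted p = 0.294). Without HKO chow replicate 2 the average passed (log2 fold change 1.02, edgeR adjusted p = 0.0124), as it did with DESeq2 (0.00455) and with no filter on low counts (4.46e-06), in a range of 4.46e-06 to 0.293.

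Sult1d1 (mm10 chromosome 5, 87554645 to 87569027, minus strand) stood at 195, 294 and 226 CPM in HKO FFD livers, against 153, 172 and 145 CPM in WT FFD livers. On chow it stood at 309, 70.8 and 194 CPM in HKO, against 78.6, 81.7 and 58.00 CPM in WT livers. HKO chow replicate 2 again lay inside the WT range, while the other HKO chow mice lay far above it. The log2 fold change was 1.00 in the average (SE 0.26, edgeR adjusted p = 0.157), 0.61 on FFD (adjusted p = 0.642) and 1.39 on chow (adjusted p = 0.214). Without HKO chow replicate 2 the average was 1.19 and passed (edgeR adjusted p = 0.00392), in a range over alternatives of 2.26e-06 to 0.32. The gain was not particular to Ugt1a9 and Sult1d1, since without that library 231 of 14592 tested genes passed in the average, against 5 of 14277 with it. That library had 13 counts of Slc25a34, within the 4 to 18 counts of the HKO libraries, and held genes of the gallbladder and stomach lining at higher levels than any other, with Muc6 at 10.2 CPM and Tff2 at 5.70 CPM, against at most 1.08 and 0.462 CPM elsewhere. Their part in the result was not tested.

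Ugt2b36 differed by 0.20 in the average over diets (SE 0.07, edgeR adjusted p = 0.298). Its values were 455, 509 and 520.2 CPM in HKO FFD, against 460.3, 422 and 424 CPM in WT FFD livers, and 513, 544 and 625 CPM in HKO chow, against 518, 501 and 426 CPM in WT chow livers. The groups overlapped on both diets.

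Sult1e1, the estrogen SULT, had the largest fitted fold on chow on few reads. It stood at 0.404, 1.01 and 0.244 CPM in HKO FFD and 1.27, 1.78 and 0.205 CPM in WT FFD livers. On chow it stood at 6.16, 0.0554 and 0.585 CPM in HKO, against 0, 0.335 and 0.128 CPM in WT livers. HKO chow replicate 1 alone held 80 counts and no other library more than 34, and the log2 fold change on chow of 3.73 did not pass (SE 1.38, edgeR adjusted p = 0.318). In the same library Cyp17a1, a steroid-synthesis gene, was at 35.3 CPM, against 4.05 to 16.3 CPM in the others, and the part of that library's state in the Sult1e1 value was not tested.

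**Figure D5:**
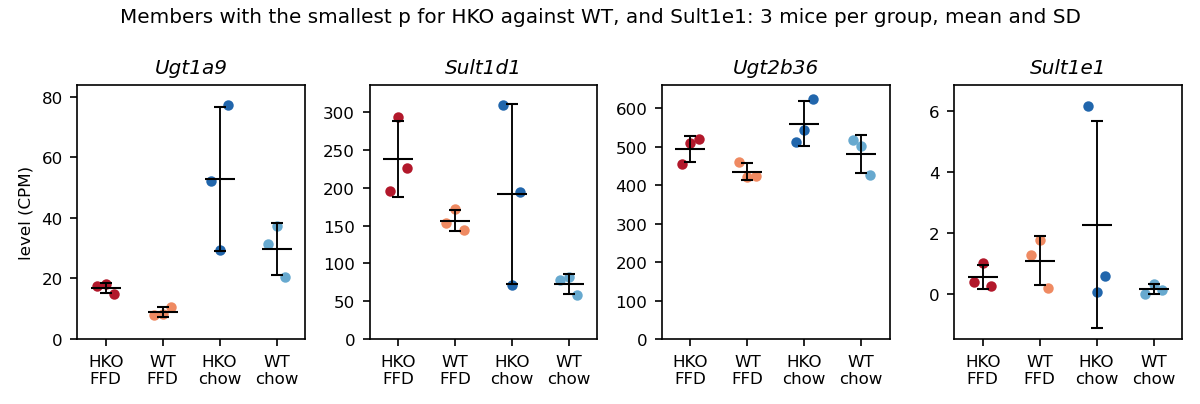
Level in CPM, on linear axes, of the 3 members with the smallest p for HKO relative to WT in the average over diets, and of Sult1e1; points are mice, horizontal bars the mean of 3 mice and whiskers the SD. In HKO chow livers 1 mouse lies among the WT mice for Ugt1a9 (29.4 CPM) and Sult1d1 (70.8 CPM), and 1 mouse alone carries the Sult1e1 mean.

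The third comparison asks whether the diet effect differed between HKO and WT livers. No member passed, and neither did any of the 14277 tested genes (0%, edgeR's interaction test), while 4 members and 9.06% of all tested genes had an unadjusted p under 0.05 and DESeq2 called 0 members. The smallest p belonged to Ugt1a7c, with a difference of −1.63 on the log2 scale between the diet effects in HKO and WT (SE 0.47, edgeR adjusted p = 0.313). Sult5a1 followed with −1.57 (SE 0.52, adjusted p = 0.373), then Sult1e1 with −4.73 (SE 1.84, adjusted p = 0.467) and Ugt2b37 with −1.69 (SE 0.69, adjusted p = 0.486). Members that passed for diet in 1 genotype alone, Ugt1a1 and Ugt2b38 in HKO and Ugt1a7c, Ugt2b1 and Sult2a8 in WT livers, are therefore not shown to differ between genotypes.

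The supply of the glucuronic acid donor moved on both sides with the diet. Of 8 tested genes 3 rose and 3 fell in the average, against 13.9% of all tested genes higher and 12.9% lower. Ugp2, which makes UDP-glucose, rose by 0.67 on the log2 scale (SE 0.07, edgeR adjusted p = 5.09e-05), with 409.8 ± 12.2 CPM in HKO FFD and 342 ± 45.04 in WT FFD livers, against 262 ± 19.1 in HKO chow and 211 ± 12.5 in WT chow livers. Ugdh, which oxidizes UDP-glucose to UDP-glucuronic acid, changed by −0.52 (SE 0.11, adjusted p = 0.00379), with 138 ± 13.3 CPM in HKO FFD and 130.2 ± 4.05 in WT FFD livers, against 198 ± 18.9 in HKO chow and 186 ± 49.9 in WT chow livers. The nucleotide carrier Slc35b1 changed by −0.74, while Pgm2 changed by 0.27 and Slc35d1, which carries UDP-glucuronic acid into the endoplasmic reticulum, by 0.23; Pgm1 and Slc35a3 did not pass.

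For the sulfate donor 3 of 9 tested genes rose and 1 fell in the average. Of all tested genes 13.9% passed as higher and 12.9% as lower there. Papss2, a PAPS synthase, changed by 0.49 (SE 0.15, edgeR adjusted p = 0.026), and Papss1, the other PAPS synthase, by −0.38 (SE 0.12, adjusted p = 0.0339). Suox, which oxidizes sulfite to sulfate, changed by 0.41, and Slc26a1, a sulfate carrier, by 0.33. Papss2 averaged 199 ± 60.1 CPM in HKO FFD and 190.0 ± 8.99 in WT FFD livers, against 153 ± 33.7 in HKO chow and 126 ± 23.8 in WT chow livers. Papss1 averaged 9.07 CPM in HKO FFD against 13.8 in HKO chow livers. In WT livers it averaged 8.02 CPM on FFD against 8.94 on chow, and the diets overlapped.

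The next 2 lists are set against the same shares in the average, 13.9% of all tested genes higher and 12.9% lower. Enzymes that hydrolyse sulfates, glucuronides or esters rose in 7 of 11 tested genes and fell in 0. Among them were Arsa at 0.73, Arsb at 0.59, Ces1d at 0.63, Ces1e at 0.63, Arsk at 0.47 and Ids at 0.33 on the log2 scale. Most of these are lysosomal sulfatases or carboxylesterases, and Gusb, the glucuronidase itself, did not pass, with a log2 fold change of 0.00 (SE 0.07, edgeR adjusted p = 0.994). Ces1d averaged 1504 CPM in HKO FFD against 741 in HKO chow livers. In WT livers it averaged 830 CPM on FFD against 705 on chow, and the diets overlapped. Carriers and exporters of conjugates rose in 6 of 12 genes and fell in 2. Abcc3, which exports glucuronides across the sinusoidal membrane, changed by 0.40, Abcg2 by 0.56, Abcc6 by 0.42, the uptake carriers Slco1b2 by 0.58 and Slco2b1 by 0.55, and the organic anion carrier Slc22a7 by 1.17. Abcc3 averaged 595 CPM in HKO FFD against 389 in HKO chow livers. In WT livers it averaged 427 CPM on FFD against 376 on chow, and the diets overlapped. Slco1a4 fell with a log2 fold change of −1.51 and Abcc4, another sinusoidal exporter, with −0.55, while Abcc2, the canalicular exporter of bilirubin glucuronides, did not pass (0.03, adjusted p = 0.832).

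For the regulators, their targets and the other transferases the shares over all tested genes were again 13.9% higher and 12.9% lower in the average. Transcriptional regulators known to act on these enzymes rose in 9 and fell in 3 of 24 tested genes. Among those that rose, Arnt, the partner of the aryl hydrocarbon receptor, changed by 0.47 (SE 0.07, edgeR adjusted p = 0.000569), the bile acid receptor Nr1h4 by 0.35, Ppara by 0.34, the xenobiotic receptors Nr1i3 by 0.30 and Nr1i2 by 0.27, their partner Rxra by 0.24 and the glucocorticoid receptor Nr3c1 by 0.25. Nr1i3 averaged 148 CPM in HKO FFD against 103 in HKO chow livers. In WT livers it averaged 97.4 CPM on FFD against 91.7 on chow, and the diets overlapped. Cux2, a repressor of male-biased genes in female mouse liver, fell with −2.13, Hnf4a with −0.33 and Rora with −0.30. Cux2 was low, at 0.202, 0.773 and 0.732 CPM in HKO FFD and 1.27, 0.732 and 0.615 in WT FFD livers. On chow it had 1.85, 1.61 and 8.84 CPM in HKO and 1.19, 2.79 and 3.34 in WT livers. Well-known targets of the xenobiotic receptors and PPARα did not rise: 0 of 14 were higher and 3 lower, Cyp4a14 at −1.28, Cyp3a11 at −0.69 and Cyp3a25 at −0.51, all of families with near-identical copies. Cyp4a14 averaged 2995 CPM in HKO FFD against 4712 in HKO chow livers, and 1930 in WT FFD against 7281 in WT chow livers. Cyp3a11 averaged 3301 against 4559 CPM in HKO and 2282 against 4323 CPM in WT livers, FFD first. Among 9 tested sulfotransferases and glycosyltransferases outside the cytosolic and endoplasmic families, Gal3st1, which sulfates glycolipids, rose with 2.18, and Tpst1 and Ndst2 fell with −0.77 and −0.23. Within genotypes the counts of higher and lower genes in HKO livers were 2 and 3 for glucuronic acid supply, 1 and 1 for sulfate supply, 5 and 0 for hydrolysing enzymes, 5 and 0 for carriers, 6 and 1 for regulators, 0 and 1 for receptor targets and 1 and 1 for the other transferases. In WT livers they were 1 and 2, 2 and 0, 3 and 0, 5 and 1, 5 and 2, 0 and 3 and 1 and 1 for the lists in that order. Of all tested genes 7.46% were higher and 6.12% lower in HKO livers, and 8.24% higher and 6.61% lower in WT livers. In the HKO relative to WT comparisons and the interaction no gene of these 7 lists passed.

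Markers of liver zones and other cells moved with the diet as well. In the average 13.9% of all tested genes were higher and 12.9% lower. Of 8 pericentral genes 4 were higher and 0 lower on FFD in the average, and their summed level, mostly Cyp2e1, was 15167 to 17071 CPM in HKO FFD and 13039 to 15992 in WT FFD livers, against 9854 to 11532 in HKO chow and 8734 to 10134 in WT chow livers. Of 8 periportal genes 0 were higher and 5 lower, with sums of 6417 to 8042 CPM in HKO FFD and 5671 to 6411 in WT FFD livers, against 7746 to 9824 in HKO chow and 7316 to 9434 in WT chow livers. The 8 gallbladder and gut genes summed to 154 to 176 CPM in HKO FFD and 185 to 203 in WT FFD livers, against 56.6 to 90.2 in HKO chow and 67.98 to 116 in WT chow livers. Nearly all of that was Fabp2, 1 of 2 tested genes and the one that passed, while Cdx2 and Lypd8 were at 0 in every library and Krt20 reached at most 0.055 CPM. Kupffer cell genes were higher in 3 of 5, other macrophage genes in 3 of 4 and lymphocyte genes in 1 of 5, with none lower, and cholangiocyte genes were lower in 1 of 5. Kupffer genes summed to 305 to 320.2 CPM in HKO FFD and 350.2 to 394 in WT FFD livers, against 245 to 273 in HKO chow and 191 to 318 in WT chow livers. Stellate, endothelial and acute phase genes had 0 calls of 6, 4 and 6, hepatocyte genes 1 higher (Cyp2e1) and 1 lower (Hnf4a) of 6, female-biased genes 1 higher and 1 lower of 2 and male-biased genes 2 higher and 3 lower of 8. In whole liver, fewer cells of a type and less RNA per cell cannot be told apart, and the part of these shifts in the members' values was not tested.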

How the data were processed

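Total RNA of whole liver was sequenced in 12 male mice. The deposited values are raw counts per gene for 54532 genes, which the authors made with STAR and featureCounts 1.5.0-p3 on mm10, per the submitters' processing notes. The aligner's version, the annotation release, the strand setting and the handling of reads in shared exons are not given in the sources used here.

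Counts were tested with edgeR 4.0.16 in R 4.3.3 (quasi-likelihood, TMM, filterByExpr, 14277 genes kept). The fit had 1 mean per group over all 12 libraries, and 7 contrasts were each adjusted by Benjamini-Hochberg over all tested genes at 0.05. SEs were taken from log2 fold changes and F statistics. Levels are CPM, with mean ± SD of 3 mice. Exon sharing came from GENCODE M21, promoters from RefSeq (GRCm38.p6), alignments from Biopython 1.88.

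Alternatives were DESeq2 1.42.0, other scalings, filters and dispersions, a replicate block and left-out libraries. Members past the threshold, and the 3 of smallest p for diet and genotype, are given by library. Pseudogenes were left out, and a few genes of the pathway lists are counted but not reported by name here. Members were taken by symbol, and the families and gene lists were chosen with earlier results of these data known.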

Additional observations from a re-analysis of the deposited data

Results flagged for a closer look

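Ugt1a7c had diet differences of opposite sign in HKO and WT livers, with no overlap between diets in either. Every HKO FFD library (0.529 to 0.832 CPM, mean 0.701 ± 0.155, SD, n = 3) lay below every HKO chow library (0.847 to 1.17 CPM), while every WT FFD library (0.806 to 1.05 CPM) lay above every WT chow library (0.321 to 0.475 CPM). The HKO difference did not pass (log2 fold change −0.51, edgeR adjusted p = 0.323), and the WT call (adjusted p = 0.0457) ended under 18 of 19 alternatives. The test of the difference itself did not pass, with an interaction of −1.63 on the log2 scale (SE 0.47, edgeR adjusted p = 0.313), and each library holds 5 to 20 counts of the gene.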

How the results depend on the processing

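No named result reversed under any alternative. Of the settings for named members, 496 kept the direction and side of the threshold, 66 lost the call and 5 gained it. With no filter on low counts, 13 members passed for diet in HKO, 15 in the average over genotypes, 3 for genotype on FFD, 3 on chow, 2 in the average over diets and 3 for the interaction, against 8, 9, 0, 0, 0 and 0; the cause was not tested. DESeq2 called 1 member, Ugt1a9, for genotype in the average. Over all genes, no filter gave 306, 395, 454 and 238 calls for genotype on FFD, on chow, in the average and for the interaction, and DESeq2 136, 130, 230 and 80, against 1, 3, 5 and 0. For diet in WT, 5 members passed without both libraries with raised acute phase genes, and 6 with the WT groups alone in the fit, against 9, both with fewer samples in the fit; the HKO groups alone gave 11 against 8. Over all genes these fits gave 1187, 1572 and 1775 calls.

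With 1 library left out, 8 to 12 members passed for diet in the average, 5 to 10 in HKO and 4 to 9 in WT. In HKO 5 passed without HKO FFD replicate 1, 2 or 3 or HKO chow replicate 1 or 3, and 10 without WT chow replicate 1. In WT 4 passed without WT chow replicate 2, and 9 without HKO chow replicate 1 or 2. For genotype, 0 to 2 passed in the average, 0 to 2 on chow (2 in both without HKO chow replicate 2) and 0 on FFD, and 0 for the interaction. Over all genes the same fits gave 3070 to 3844 calls for diet in the average, 967 to 2125 in HKO and 1113 to 2334 in WT, against 3827, 1939 and 2121 with all libraries. Without HKO chow replicate 2, 313 genes passed for genotype on chow, 231 in the average and 81 for the interaction, and the highest number on FFD was 30 without HKO FFD replicate 1. Samples of the same replicate number did not deviate together (correlations from −0.114 to 0.117 over 18 pairs). No sign of a pairing by number was thus seen, though such correlations cannot exclude one. With the replicate block, 9 members passed for diet in HKO, 8 in WT and 10 in the average, and 0 in the genotype and interaction contrasts, with 1763, 1866 and 3602 of all genes for diet. The fit of only the compared groups was not run for averages and interaction, which use all groups. Ugt1a7c rests on 5 to 20 counts per library.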
